A study of Homo sapiens with 24 samples.

Results

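The BCL2 family decides whether a cell opens the outer membrane of its mitochondria and dies by apoptosis. This account follows 10 of its genes, chosen by symbol, among the 19475 genes of the deposited count table: the survival genes BCL2, BCL2L1 and MCL1, the BH3-only genes BCL2L11, BBC3, PMAIP1, BID and BIK, and the pore genes BAX and BAK1. All 10 were found in the table. By its title, the study measured RNA after a reduction of CBX7, a chromodomain protein of Polycomb repressive complex 1, in 4 established human lines. A549 is a lung adenocarcinoma line with wild-type p53, H1299 a lung carcinoma line without p53, K562 an erythroid-type line from a chronic myeloid leukaemia, without functional p53, and THP-1 a monocytic line from an acute leukaemia that also lacks p53. Each line had 3 libraries labelled control and 3 labelled CBX7 knockdown, 24 in all, and per the labels' protocol both arms had received a lentivirus, with a hairpin directed at CBX7 or with a control hairpin. The treatment field of the labels names a small interfering RNA against CBX7 for every sample, and no label gives the time after infection, a clone or a selection.

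CBX7 itself went against its labels. It was higher, not lower, in the libraries labelled knockdown of every line, by 3.62 on the log2 scale in H1299, 3.08 in A549, 1.51 in K562 and 1.20 in THP-1 (edgeR quasi-likelihood test, Benjamini-Hochberg adjusted p between 2.02e-13 and 0.00144), and no knockdown library overlapped a control library. Directions below are therefore those of the libraries labelled knockdown relative to those labelled control, and which arm had less CBX7 protein is not known from these files. The libraries held between 71.1 M and 132 M estimated counts. Lineage markers had a median of 114 to 207 CPM over 10 erythroid genes in K562 and of 72.5 to 81.7 CPM over 10 myeloid genes in THP-1. Over 8 epithelial genes it was 68.8 to 125 CPM in A549 but 1.54 to 2.88 CPM in the lung line H1299, below the 18.4 to 37.7 CPM of K562. The sum over these 8 genes had the other order, at 1520 to 1570 CPM in H1299 controls and 729 to 797 CPM in K562 controls. A set of 6 alveolar and airway genes summed to at most 1.15 CPM in A549 and 0.332 CPM in H1299. CPM is the estimated count scaled to a common library size of 1 M (mega). For these marker lists the library size was the total of the estimated counts. For the CPM of single genes it was also adjusted by TMM normalisation factors fitted within each line. Such CPM are therefore not on exactly 1 scale between lines. The labels do not say that replicates were separate cultures, so the p-values rest on a spread between libraries that could be technical alone. In such bulk RNA, fewer cells of a kind and less RNA per cell cannot be told apart.

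Survival members hold BAX and BAK1 in check and bind BH3-only proteins in a groove on their surface. BH3-only proteins are the sensors: BIM (from BCL2L11), PUMA (BBC3), NOXA (PMAIP1), BID and BIK either occupy the survival proteins or engage BAX and BAK directly. Once freed or engaged, BAX and BAK form oligomers that let cytochrome c out, after which APAF1 and the caspases dismantle the cell. BBC3, PMAIP1 and BAX are textbook targets of p53, PMAIP1 and BBC3 are also induced in the integrated stress response, and BCL2L11 is a target of FOXO factors.

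Across the lines, the family moved in no common direction. In A549, at an adjusted p under 0.05, the arm labelled knockdown had 3 members higher and 2 lower, beside 27.2% and 28.4% of all tested genes. In H1299, 3 were higher and 5 lower, beside 33.4% and 35.5%. In K562, 2 were higher and 4 lower of 9 tested, beside 28.9% and 27.5%. In THP-1, 2 were higher and 0 lower, beside 6.3% and 3.93%, and of these calls 0 were left without THP-1 control replicate 1 or 2 and 1 without control replicate 3 or knockdown replicate 1 or 3. The 0 lower in THP-1 was also 0 at an unadjusted p under 0.05 in edgeR and at an adjusted p under 0.05 in DESeq2 and limma, but with an offset for gene length BCL2 was called lower there (-0.25, adjusted p = 0.0347). THP-1 knockdown replicate 2 stood apart from replicates 1 and 3 (chi-square per degree of freedom 69.5 and 67.7, against 8.27 between those 2). Without that library 3324 genes were called in THP-1, in place of 1458. Changes in either direction reached 55.6%, 68.9%, 56.5% and 10.2% of all genes in these lines, so the share of members called lay near that of all genes. The 2 arms did not overlap in CPM for 6, 9, 8 and 3 of the 10 members, against 63.7%, 74.5%, 65.6% and 35.6% of all tested genes. The K562 count of 8 takes in BIK, which was not among the tested genes there. The median log2 fold change of the members was -0.33 in H1299, 0.24 in A549, and -0.03 in both K562 and THP-1, where the median of all tested genes was 0.00, 0.01, 0.01 and 0.01.

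BCL2L11 and PMAIP1 passed the test in all 4 lines, as did 2.99% of the 12191 genes tested in all 4. Neither did so in one direction, as 0.869% of those genes did: BCL2L11 was lower in K562 and higher elsewhere, and PMAIP1 was lower in A549 and higher elsewhere. The effect of the label differed between lines for 9 of the 10 members, all but MCL1, in the interaction test of the model of all 24 libraries, beside 64.9% of all genes.

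**Figure D1:**
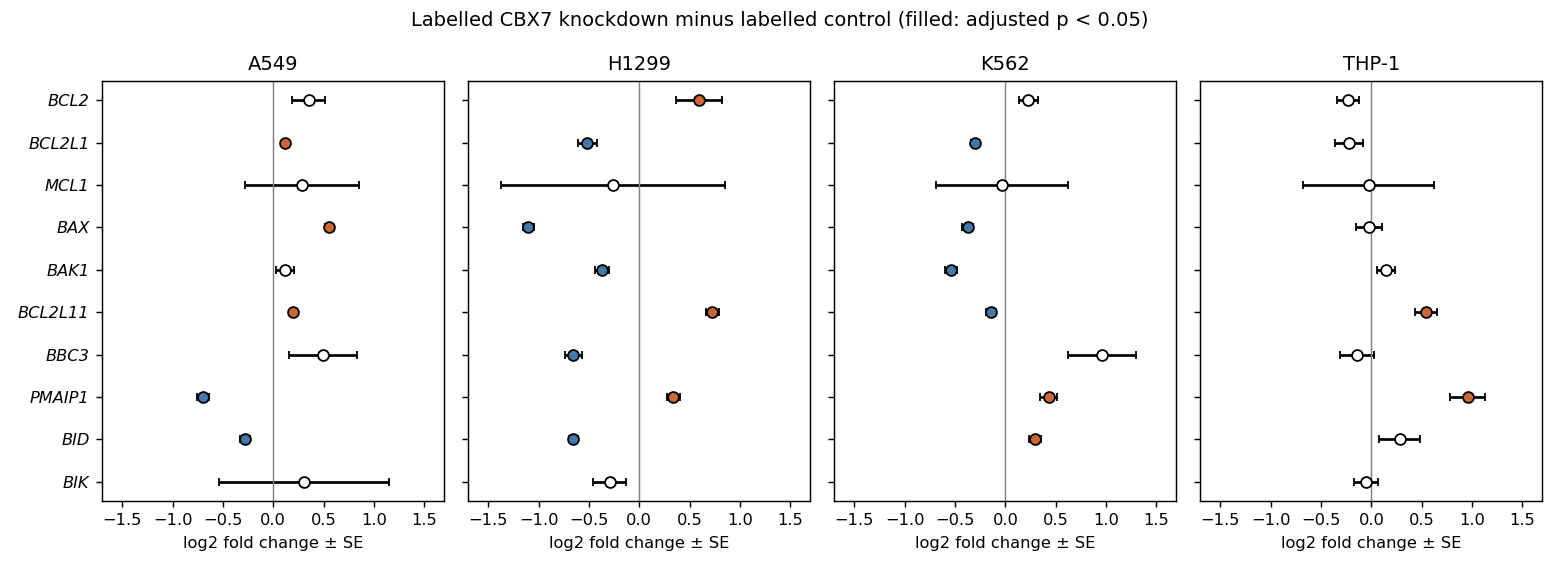
Log2 fold change of each member (labelled knockdown minus labelled control) in the 4 lines, with bars of 1 standard error from the edgeR fit and filled points for an adjusted p under 0.05. BAX shows the widest disagreement between lines, from -1.10 in H1299 to 0.56 in A549. PMAIP1, from -0.70 in A549 to 0.96 in THP-1, and BBC3, from -0.655 in H1299 to 0.96 in K562, come close to it. With an offset for gene length, not drawn here, BAX in H1299 was at -0.62. The bars of MCL1 and of BIK in A549 are long.

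Among the pro-apoptotic members, PMAIP1 encodes NOXA, a BH3-only protein that chiefly neutralises MCL1. In A549 it stood at 39.6, 39.3 and 42.0 CPM in the control libraries and at 24.03, 24.29 and 26.08 CPM in those labelled knockdown. All 3 of the latter lay well below the controls, a log2 fold change of -0.70 ± 0.06 (SE, adjusted p = 4.4e-07 by edgeR's quasi-likelihood test). In K562 the levels were 35.1, 29.8 and 28.7 CPM in controls and 43.3, 39.4 and 43.2 CPM in the libraries labelled knockdown, a rise of 0.43 ± 0.08 (adjusted p = 0.00108). In THP-1 they were 15.6, 19.5 and 21.0 CPM against 33.3, 44.7 and 30.8 CPM, so that every labelled knockdown library was above every control (0.96 ± 0.17, adjusted p = 0.0122). This THP-1 call was lost without control replicate 1 (adjusted p = 0.0681) or control replicate 2 (adjusted p = 0.0537). In H1299 the groups also lay apart, at 13.9, 13.4 and 14.2 CPM against 18.3, 17.2 and 16.9 CPM (0.34 ± 0.065, adjusted p = 0.000615).

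BCL2L11 encodes BIM, a BH3-only protein able to bind every survival member. In H1299 it rose from 22.1, 23.9 and 24.8 CPM in controls to 41.0, 35.9 and 39.9 CPM in the libraries labelled knockdown (0.72 ± 0.065, adjusted p = 9.6e-07), or by 0.33 with an offset for gene length (adjusted p = 0.000885). In THP-1 it went from 55.0, 64.3 and 60.3 CPM to 93.0, 76.2 and 92.6 CPM (0.54 ± 0.11, adjusted p = 0.0211), without overlap. Yet the THP-1 call was lost in 5 of the 6 fits that each left out 1 library (adjusted p 0.0632 to 0.0947) and was kept without knockdown replicate 2 (adjusted p = 0.000367). In A549 the change was small against a tight spread, from 69.2, 70.8 and 70.8 CPM to 79.2, 83.8 and 79.1 CPM (0.20 ± 0.04, adjusted p = 0.000711), and with an offset for gene length the A549 call was lost (0.08, adjusted p = 0.0938). In K562 it fell, from 69.0, 66.9 and 72.0 CPM to 60.5, 63.4 and 64.4 CPM (-0.14 ± 0.05, adjusted p = 0.0326), and this call was lost without control replicate 3 or without knockdown replicate 1 or 2 (adjusted p 0.0725 to 0.107), by limma (adjusted p 0.198 to 0.206) and with all 24 libraries in one fit (adjusted p = 0.22).

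BBC3 encodes PUMA, a strong BH3-only activator. Only in H1299 did it pass the test, falling from 14.5, 15.1 and 14.6 CPM to 8.29, 9.86 and 9.87 CPM (-0.655 ± 0.08, adjusted p = 2.01e-05), with a difference of -0.28 under the length offset (adjusted p = 0.0102). In K562 the controls read 15.3, 14.9 and 17.6 CPM and the libraries labelled knockdown 17.99, 37.47 and 37.25 CPM. Replicates 2 and 3 were thus about level with each other and replicate 1 was close to the controls, and the log2 difference of 0.96 ± 0.335 had an adjusted p of 0.0702. Without knockdown replicate 1 the difference was 1.23, with an adjusted p of 4.42e-06, and DESeq2 called it on all 6 libraries (adjusted p = 0.00932). A549 read 6.70, 13.5 and 12.7 CPM against 12.32, 18.02 and 15.94 CPM, overlapping groups with an adjusted p of 0.285. In THP-1 all 6 libraries lay between 4.69 and 6.84 CPM (adjusted p = 0.642).

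BID, which caspase 8 cuts to carry a death receptor signal to the mitochondrion, fell in both lung lines and rose in K562. In H1299 the controls read 44.2, 45.7 and 46.4 CPM and the libraries labelled knockdown 27.7, 29.5 and 29.4 CPM (-0.655 ± 0.05, adjusted p = 1.3e-07). In A549 it went from 40.7, 42.9 and 41.8 CPM to 33.1, 34.4 and 35.6 CPM (-0.28 ± 0.05, adjusted p = 0.00043), and in K562 from 45.4, 43.5 and 43.2 CPM to 56.6, 55.1 and 50.1 CPM (0.29 ± 0.06, adjusted p = 0.00176). The groups did not overlap in these 3 lines. In THP-1, control replicate 1 read 38.5 CPM and the other 5 libraries 59.7 to 76.1 CPM, with an adjusted p of 0.435.

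BIK, a BH3-only protein of the endoplasmic reticulum, passed the test within no line. Its estimated counts were 5, 0 and 0 in the K562 controls and 17, 9 and 12 in the K562 libraries labelled knockdown, too few to pass the filter on low counts. In A549 the 6 libraries held 5 to 33 counts. In H1299 the controls lay at 2.59 to 3.09 CPM and the libraries labelled knockdown at 1.96 to 2.53 CPM, not overlapping, with an adjusted p of 0.137. In THP-1 all 6 lay between 20.4 and 25.7 CPM (adjusted p = 0.809).

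**Figure D2:**
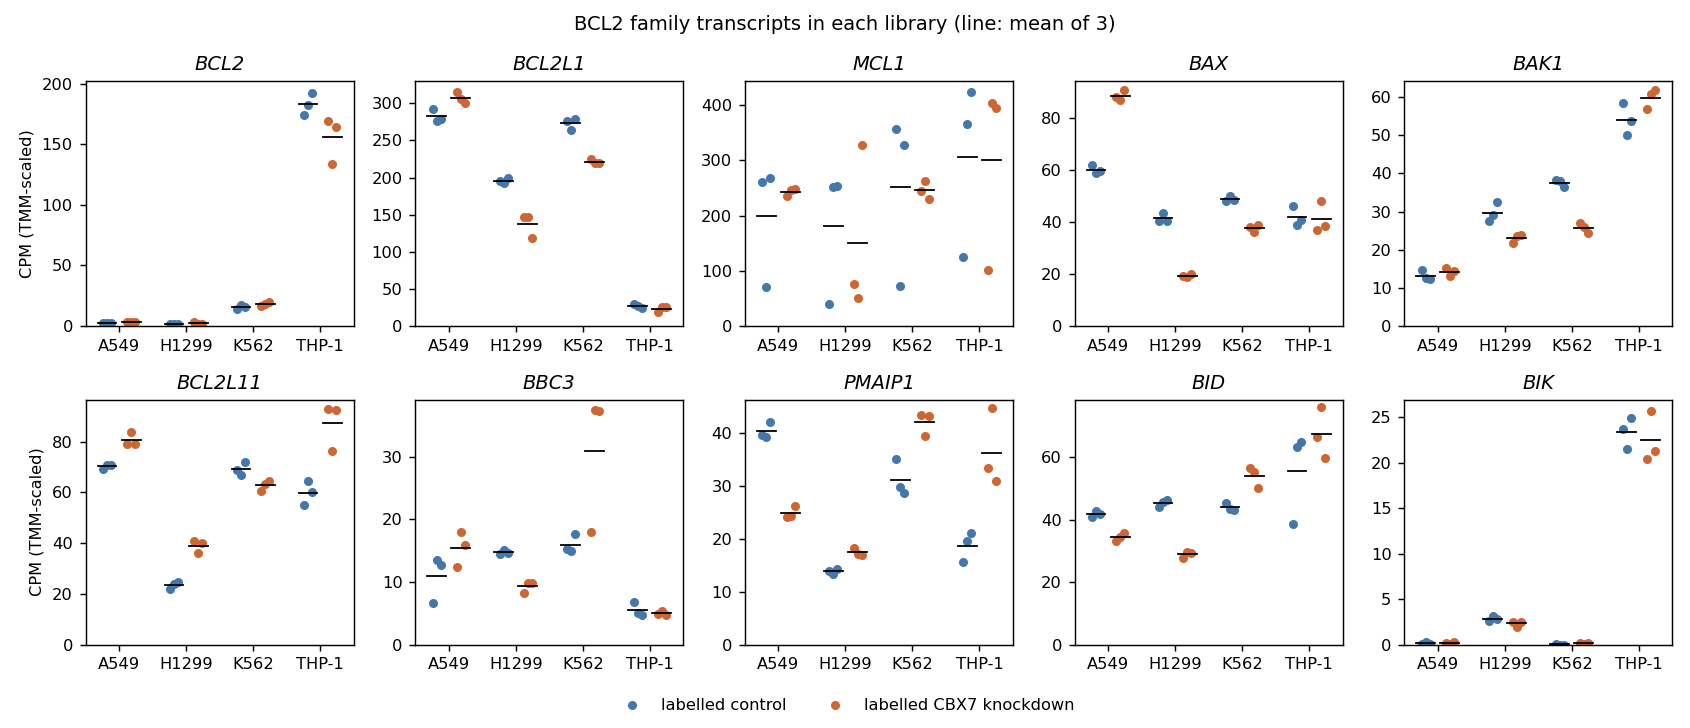
CPM of the 10 members in each of the 24 libraries, 1 panel per gene on its own linear axis, with points for single libraries labelled control or knockdown and a line at the mean of 3. The PMAIP1 libraries labelled knockdown of THP-1 sit between 30.8 and 44.7 CPM, all above the controls, whereas MCL1 splits within groups.

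Of the pore formers, BAX, which moves from the cytosol to mitochondria when activated, changed in opposite directions in the lung lines. In A549 its level rose from 62.0, 58.6 and 59.6 CPM in controls to 87.7, 86.8 and 90.4 CPM (0.56 ± 0.04, adjusted p = 1.11e-07). In H1299 it fell from 40.3, 43.5 and 40.4 CPM to 19.1, 18.8 and 19.9 CPM (-1.10 ± 0.05, adjusted p = 4.54e-09), the largest log2 change of a tested member in any line without an offset for length. In K562 it fell from 48.0, 49.9 and 48.5 CPM to 38.1, 36.0 and 38.9 CPM (-0.37 ± 0.05, adjusted p = 0.000184). In THP-1 the arms overlapped, with 38.7 to 46.2 CPM in controls and 36.8 to 48.0 CPM in the others (adjusted p = 0.919). BAX kept its call and its direction in A549, H1299 and K562 under all 17 other settings run for each line.

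BAK1, the pore former that sits in the mitochondrial membrane of resting cells, fell in K562 from 38.2, 38.0 and 36.3 CPM to 27.1, 25.9 and 24.4 CPM (-0.54 ± 0.06, adjusted p = 2.78e-05). In H1299 it fell from 27.6, 29.1 and 32.5 CPM to 21.8, 23.5 and 23.8 CPM (-0.37 ± 0.07, adjusted p = 0.00052). In CPM the groups were separate in both lines. In TPM, which also corrects for transcript length, they overlapped in H1299, at 24.08, 24.79 and 28.06 in controls against 25.79, 27.71 and 28.14. There the mean was higher in the libraries labelled knockdown (27.2 against 25.6 TPM). BAK1 did not pass the test in A549 (12.4 to 15.2 CPM over 6 libraries, adjusted p = 0.268) or in THP-1 (50.1 to 61.8 CPM, adjusted p = 0.373). The H1299 values stand beside a trend with gene length in that line: log2 fold changes there had a Spearman correlation of 0.565 with transcript length across 14472 genes, which took up 22.9% of their variance, against at most 0.557% in the other lines. With an offset for length the BAK1 difference in H1299 was -0.085 (adjusted p = 0.297), while that of BAX was -0.62 and still called. Under the same offset BCL2L1 in H1299 was at -0.33 (adjusted p = 0.0324) and PMAIP1 at 0.69 (adjusted p = 2.75e-06), and in K562 BCL2L11 was at -0.295 and BID at 0.15, all still called.

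PMAIP1 and BAX were called in opposite directions in different lines, as were BCL2L11, BCL2L1 and BID. Of these, only PMAIP1 and BAX were picked for display, with 1 motif chosen for each. The 300 bases around their annotated starts (250 before and 50 after) are given from RefSeq on GRCh38.p14, both on the plus strand. Such windows were found for 8 of the 10 members. Capitals mark 2 motifs searched on both strands: ACGTCA, the core bound by CREB and ATF proteins, at PMAIP1, and CACGTG, the E-box, at BAX. Among 35116 promoter windows of this length 7.98% held ACGTCA and 7.26% held CACGTG.
PMAIP1, chr18:59899746-59900045: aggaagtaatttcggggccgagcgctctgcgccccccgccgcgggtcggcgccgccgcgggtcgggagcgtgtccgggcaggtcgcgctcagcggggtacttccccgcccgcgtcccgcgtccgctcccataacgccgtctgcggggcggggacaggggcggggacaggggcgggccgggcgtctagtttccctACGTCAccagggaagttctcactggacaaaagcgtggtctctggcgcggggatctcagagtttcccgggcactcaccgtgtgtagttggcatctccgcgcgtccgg
BAX, chr19:48954625-48954924: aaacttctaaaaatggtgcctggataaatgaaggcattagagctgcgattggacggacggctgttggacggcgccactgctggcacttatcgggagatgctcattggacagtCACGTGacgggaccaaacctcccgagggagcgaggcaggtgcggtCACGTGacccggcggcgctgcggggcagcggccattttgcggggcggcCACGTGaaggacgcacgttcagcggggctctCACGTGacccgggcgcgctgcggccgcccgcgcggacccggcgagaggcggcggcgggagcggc
The PMAIP1 window held ACGTCA 1 time. The BAX window held CACGTG 4 times, and only 5 of the 35116 windows (0.0142%) held it 4 times or more. Among the members, BBC3 and BID windows held CACGTG too. A match is a description of letters and not of binding.

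Of the survival members, BCL2L1 encodes BCL-xL. It was higher in A549, at 292.3, 276.2 and 278.6 CPM in controls and 315.2, 305.8 and 300.5 CPM in the libraries labelled knockdown (0.12 ± 0.03, adjusted p = 0.00436). It was lower in K562, at 276.7, 263.5 and 278.9 CPM against 224.7, 219.2 and 220.1 CPM (-0.30 ± 0.04, adjusted p = 6.18e-05), and in H1299, at 195.1, 193.2 and 198.9 CPM against 146.6, 146.5 and 117.9 CPM (-0.515 ± 0.10, adjusted p = 0.0058). In all 3 lines the arms lay apart in CPM. In TPM they overlapped in H1299, at 139.9, 135.2 and 139.5 against 139.6, 140.6 and 110.2. In THP-1, which had little of it, controls at 24.4 to 29.8 CPM overlapped the others at 19.0 to 25.9 CPM (adjusted p = 0.374).

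BCL2L1 is spliced to a long form, which protects cells, and to a short form, which is known to promote death. Both coding stretches are shown from GENCODE release 29 (chromosome 20, minus strand, transcript orientation) because the deposited transcripts separate them. Capitals mark the 189 bases that the short form lacks, within coding sequences of 233 and 170 codons.
BCL2L1 long form: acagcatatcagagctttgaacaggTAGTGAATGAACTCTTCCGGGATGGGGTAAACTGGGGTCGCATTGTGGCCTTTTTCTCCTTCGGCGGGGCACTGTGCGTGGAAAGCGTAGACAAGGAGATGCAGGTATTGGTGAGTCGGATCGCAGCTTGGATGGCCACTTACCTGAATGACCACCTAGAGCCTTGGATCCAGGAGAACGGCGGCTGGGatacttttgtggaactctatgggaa
BCL2L1 short form: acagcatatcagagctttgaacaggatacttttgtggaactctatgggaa
The short form, transcript NM_001191, took 5.02% ± 0.82 (SD, n = 3) of the TPM of the gene in A549 controls and 7.21% ± 1.15 in A549 libraries labelled knockdown. Its group means in the other lines lay between 5.34% and 6.15%, and no test was run on these shares. Single libraries could lie far from these means, as in THP-1 libraries labelled knockdown at 11.0%, 0% and 5.18%. TPM is scaled to a common total too and also corrects for transcript length. Among the long-form transcripts, NM_001322242 took 41.3% ± 9.11 in K562 controls and 47.6% ± 6.32 in K562 libraries labelled knockdown, but 12.4% ± 5.12 in A549 controls and 2.73% ± 0.76 in H1299 controls. These transcripts differ outside the coding sequence, where assignment of reads by StringTie can shift between libraries: NM_138578 took 76.1% in H1299 knockdown replicate 3 and 29.9% and 22.1% in the other two.

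**Figure D3:**
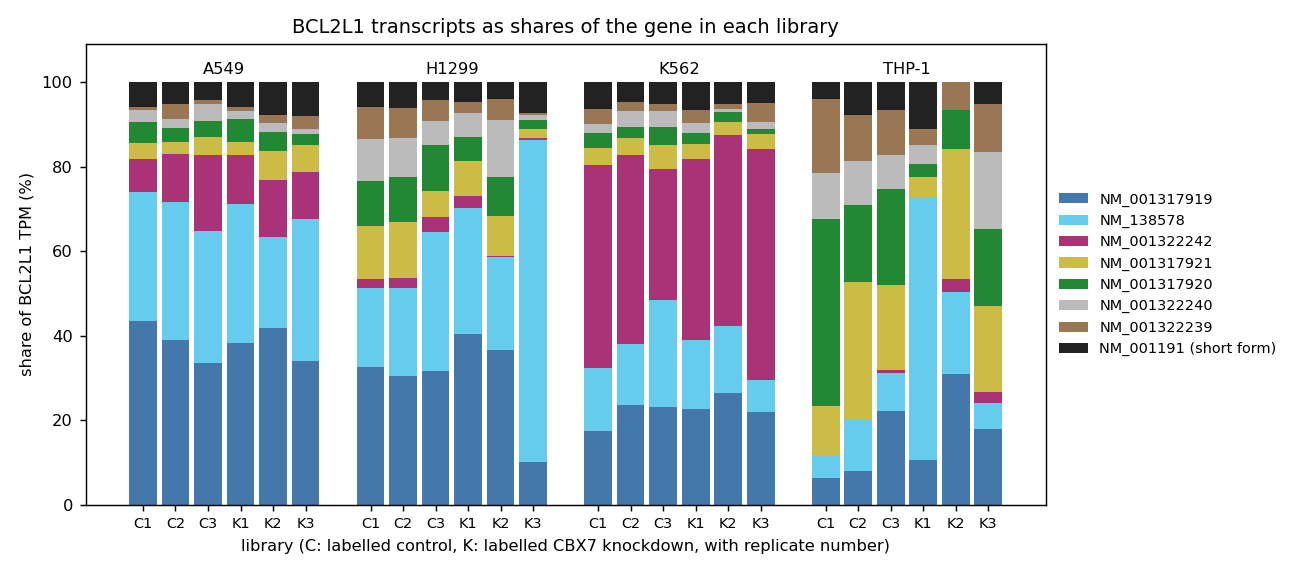
Share of the BCL2L1 TPM taken by each of its 8 transcripts, in percent, as 1 stacked bar per library (C, labelled control; K, labelled CBX7 knockdown). NM_001322242 takes 41.3% and 47.6% on average in the K562 groups, and the short form NM_001191, at the top of the bars, averages at most 7.21% in any group.

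BCL2, the founding survival gene, was called in H1299 only, at 1.32, 1.53 and 1.71 CPM in controls and 3.03, 2.02 and 1.83 CPM in the libraries labelled knockdown (0.59 ± 0.23, adjusted p = 0.0368). That call rests on little: it was lost without control replicate 1 or 2 (adjusted p = 0.109 and 0.0678) or knockdown replicate 1 (adjusted p = 0.196), and with an offset for gene length the difference was -0.07 (adjusted p = 0.808). BCL2 has the longest transcript of the 10 members, 7461 bases. In A549 the libraries labelled knockdown, at 3.23, 2.92 and 3.22 CPM, all lay above the controls at 2.16, 2.79 and 2.39 CPM, with an adjusted p of 0.0877. In K562 the values were 14.2, 17.1 and 15.3 CPM against 16.3, 18.2 and 19.9 CPM (adjusted p = 0.0647), and the call appeared without control replicate 2 (adjusted p = 0.0324) or knockdown replicate 1 (adjusted p = 0.0303), by DESeq2 (adjusted p = 0.0357) and with a filter of 1 CPM in 3 libraries (adjusted p = 0.0496). Over all settings the K562 log2 difference ran from 0.062 to 0.30, with an adjusted p of up to 0.556. In TPM the K562 arms overlapped, and the mean was lower in the libraries labelled knockdown (6.52 against 6.64 TPM). In THP-1 the controls at 174.6, 182.9 and 192.8 CPM were all above 169.0, 134.0 and 164.6 CPM, with an adjusted p of 0.228 that became 0.0347 with the length offset. Leaving out single libraries gave THP-1 log2 differences of -0.302 to -0.138, none of them called (adjusted p 0.142 to 0.438). In TPM the THP-1 arms overlapped, at 64.33, 67.15 and 71.85 against 66.72, 45.68 and 64.1.

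MCL1 encodes a short-lived survival protein. It passed the test in no line (adjusted p 0.717 to 0.984), and its standard errors of 0.57 to 1.11 were the largest among members outside the low counts of BIK. Instead of scattering, the libraries fell into 2 ranges. In 7 of 24 libraries MCL1 stood at 40.7 to 125.8 CPM, which is 12.4% to 29.7% of the highest library of the same line, and in the other 17 at 230.2 to 424.3 CPM, or 64.6% to 100%. The 7 low libraries were A549 control replicate 2, K562 control replicate 2, H1299 control replicate 1, H1299 knockdown replicates 1 and 2, THP-1 control replicate 1 and THP-1 knockdown replicate 1. They came from both arms and all 4 lines. No other gene among 5133 with at least 50 CPM lay under 50% of its line maximum in exactly these 7 libraries.

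Within H1299, for example, MCL1 read 40.7, 251.4 and 252.6 CPM in controls and 75.9, 50.4 and 327.0 CPM in the libraries labelled knockdown. The ratio of the highest to the lowest library was 6.21 and 6.48 in these groups, whereas 1.01% and 0.413% of genes with at least 50 CPM reached a ratio of 3. The drop lay in NM_021960, the long, protective form, at 15.3 TPM in H1299 control replicate 1 and 111.9 and 116.5 TPM in the other two. Leaving out single libraries gave calls: without A549 control replicate 2 the log2 difference was -0.12 (adjusted p = 0.0133), and without K562 control replicate 2 it was -0.475 (adjusted p = 0.00036). MCL1 overlaps ADAMTSL4-AS1, which is annotated on the same strand. The cause of the low values was not tested.

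**Figure D4:**
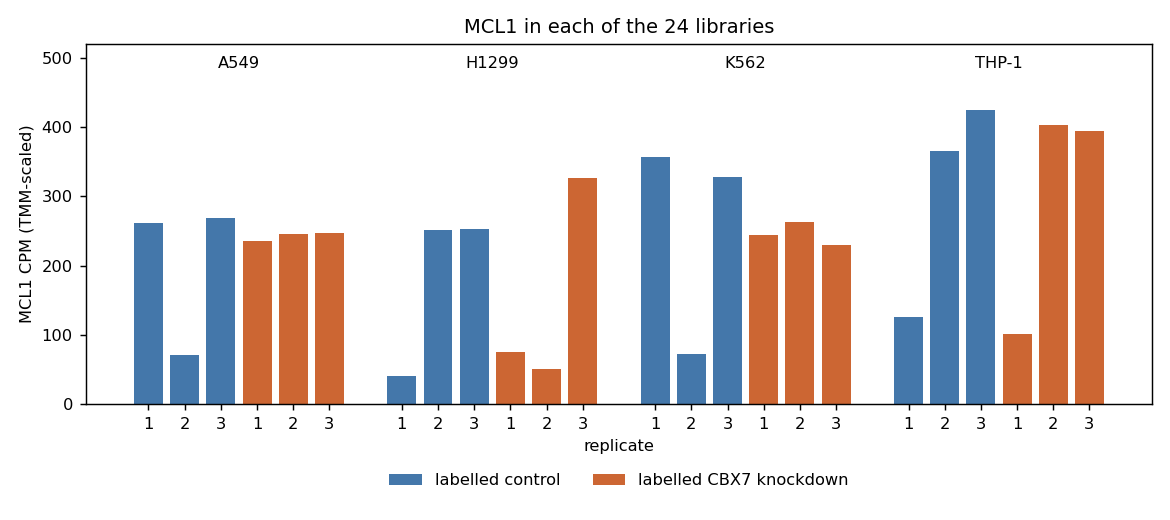
MCL1 CPM in each of the 24 libraries, 1 bar per library, by line, label and replicate number. In 7 libraries it lies between 40.7 and 125.8 CPM and in the other 17 between 230.2 and 424.3 CPM.

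Among the 12 control libraries, the lines differed in which survival gene had the highest RNA level. Transcript levels are given as TPM, which can be set side by side between genes. BCL2L1 led in A549 (252.2 ± 6.44 TPM, SD, n = 3), K562 (228.5 ± 4.84) and H1299 (138.2 ± 2.59) and was low in THP-1 (24.8 ± 2.53). In THP-1 the survival gene with the highest mean was MCL1 (176.4 ± 92.5 TPM). BCL2 was higher in THP-1 than in the other lines, at 67.78 ± 3.801 TPM, followed by 6.64 ± 0.99 in K562, 1.87 ± 0.54 in A549 and 0.755 ± 0.32 in H1299. Each neighbouring pair of lines in the order of BCL2L1 and of BCL2 differed by edgeR's quasi-likelihood test on the control libraries. The BCL2L1 call of K562 against A549 (adjusted p = 0.0217) was lost without A549 control replicate 1 (0.0817) or K562 control replicate 2 (0.0665) and by limma (0.446 to 0.482). For BCL2, THP-1 exceeded K562 by 3.715 ± 0.11 on the log2 scale (adjusted p = 7.29e-11), and for BCL2L1, THP-1 was 2.68 ± 0.06 below H1299 (adjusted p = 9.17e-12). MCL1 ran from 83.9 ± 55.9 TPM in H1299 to 176.4 ± 92.5 TPM in THP-1, and no pair of lines differed beyond that spread in the test (adjusted p 0.329 to 0.837).

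BAX was the most abundant pro-apoptotic member in every line. It stood at 175.2 ± 5.17 TPM in A549, 126.9 ± 2.98 in K562, 118.3 ± 10.1 in THP-1 and 95.9 ± 3.08 in H1299, of which K562 and THP-1 did not differ beyond their spread (adjusted p = 0.332), although limma called this pair (adjusted p 0.00575 to 0.00808), as did edgeR without THP-1 control replicate 1 (0.0192). The BAX call of THP-1 against H1299 (adjusted p = 0.026) was lost without a filter (0.0692), by limma (0.39 to 0.435) and in 7 of the 12 fits that left out 1 control library (0.0608 to 0.0957). BAK1 was highest in THP-1 (57.8 ± 4.20 TPM), followed by K562 (37.3 ± 0.96), H1299 (25.6 ± 2.12) and A549 (14.5 ± 1.34), with each step past the test.

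BIK separated the lines most widely. It reached 57.5 ± 4.70 TPM in THP-1, 5.62 ± 0.43 in H1299, 0.374 ± 0.40 in A549 and 0.033 ± 0.06 in K562. PMAIP1 fell from A549 (50.4 ± 2.02 TPM) through K562 (35.1 ± 3.52) and THP-1 (22.6 ± 3.61) to H1299 (13.5 ± 0.54), each step past the test, of which K562 against A549 was lost with the length offset (-0.10, adjusted p = 0.415). BCL2L11 stood at 34.8 ± 0.73 TPM in A549, 31.9 ± 1.65 in K562 and 28.5 ± 2.74 in THP-1, of which K562 and THP-1 did not differ beyond their spread (adjusted p = 0.392), and at 9.81 ± 0.71 in H1299. THP-1 was called below K562 with the length offset (-0.60, adjusted p = 2.82e-06) and by limma (adjusted p 0.00876 to 0.0116). The BCL2L11 call between A549 and K562 (adjusted p = 0.0461) was lost in 8 of the 12 fits that left out 1 control library and by limma (0.771 to 0.804). BBC3 was lower in THP-1 (7.08 ± 1.33 TPM) than in the other lines, which had 14.7 to 18.8 TPM. Between those other lines edgeR made no BBC3 call (adjusted p 0.107 to 0.645). K562 was, however, called above A549 with the length offset (0.79, adjusted p = 0.00722), by limma (0.0302 to 0.0343) and without A549 control replicate 2 (0.0461). In TPM, H1299 at no more than 15.36 lay below K562 at 17.74 to 20.86. A549, at 8.998 to 17.76 TPM, overlapped both. BID was higher in THP-1 (59.5 ± 15.9 TPM) than in the others, at 39.6 to 46.6 TPM. Those others were not called against each other by edgeR (adjusted p 0.808 to 0.983). In TPM, though, H1299 at 39.1 to 40.3 lay below K562 at 43.55 to 45.5 and A549 at 45.2 to 47.7. The BID calls were lost without THP-1 control replicate 2 or 3 (adjusted p 0.0561 to 0.12), that against A549 also without A549 control replicate 1 (0.0547) and that against H1299 without H1299 control replicate 1 (0.0504). Limma did not call BID in THP-1 against H1299 (0.0997 to 0.107) or K562 (0.0882 to 0.0961). With the length offset BID in K562 was called above A549 (0.42, adjusted p = 0.0266) and H1299 (0.39, adjusted p = 0.0379) and THP-1 was not called above K562 (adjusted p = 0.177).

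A few of these orders changed with an offset for gene length. With it, the log2 difference of K562 from A549 went from -0.17 to 0.31 for BCL2L1 and from -0.14 to 0.85 for BCL2L11. The BCL2 difference between H1299 and A549 went from -0.82 to 0.02.

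Between pairs of lines, 7 to 9 of the 10 members were called. They were 7 for H1299 against A549, 7 for K562 against A549, 9 for THP-1 against A549, 7 for K562 against H1299, 9 for THP-1 against H1299 and 7 for THP-1 against K562. Of all 16305 genes, 78%, 80.1%, 80.2%, 78.9%, 80.9% and 77.4% were called in the same comparisons, so the members differed between lines about as often as any gene.

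**Figure D5:**
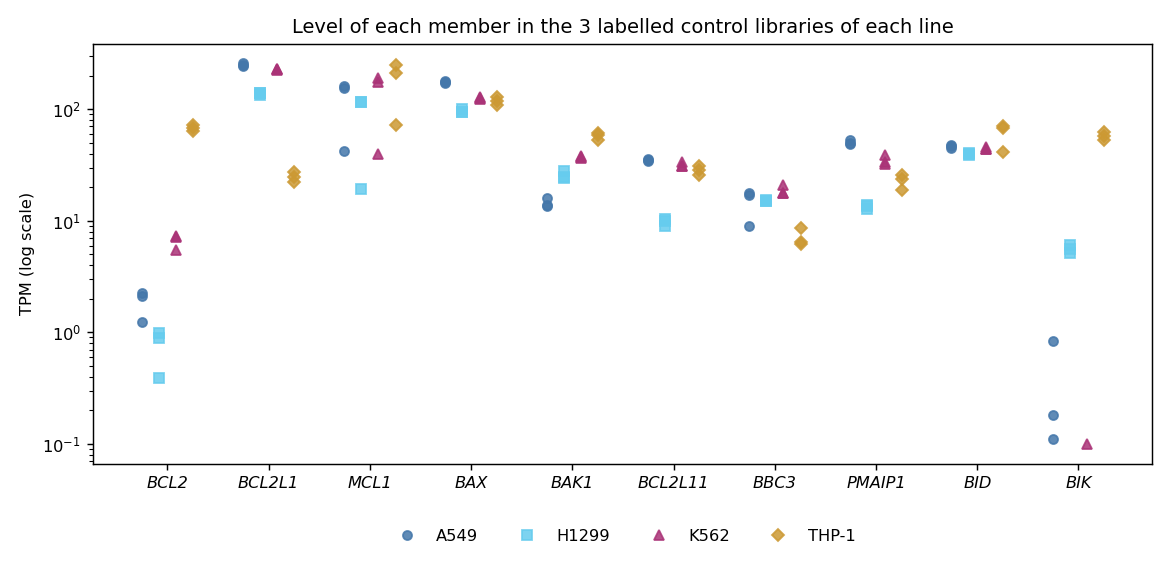
TPM of each member in the control libraries of the 4 lines on a logarithmic axis, with points for the 3 libraries (a library at 0, as in BIK of K562, is not drawn). Of the 4 lines, THP-1 has the highest BCL2, at 67.8 TPM on average, and the lowest BCL2L1, at 24.8 TPM.

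Averaged over the 4 lines, 7 of 10 members were called, 4 higher and 3 lower, beside 50.1% of all genes, 28.9% higher and 21.2% lower. BCL2L11 (0.36 ± 0.04, adjusted p = 8.42e-08), PMAIP1 (0.28 ± 0.06, adjusted p = 0.000472), BCL2 (0.26 ± 0.07, adjusted p = 0.00548) and BIK (0.76 ± 0.29, adjusted p = 0.0365) were higher. BCL2L1 (-0.20 ± 0.05, adjusted p = 0.00157), BAX (-0.21 ± 0.04, adjusted p = 0.000241) and BAK1 (-0.13 ± 0.04, adjusted p = 0.0085) were lower. The BIK call was lost in 9 of the 24 fits that left out 1 library (adjusted p 0.0505 to 0.0938), namely A549 control 1 or 3 or knockdown 3, H1299 knockdown 3, K562 control 2 or 3 or knockdown 1 or 3, and THP-1 control 2. The BCL2 average was -0.03 with the length offset (adjusted p = 0.804) and was not called by limma on log2(FPKM + 1) (0.07, adjusted p = 0.121), and that of BCL2L11 was 0.14 with the offset. The BIK average was not called by limma either (adjusted p 0.0862 to 0.746). BIK was called within no line, at 0.31 in A549, -0.29 in H1299 and -0.06 in THP-1. Its average also takes in K562, where counts of 5, 0 and 0 against 17, 9 and 12 were too few to test within the line. As these 7 also differed between lines, none of these averages describes each line.

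Transcript makeup moved within BAX as well, given here with no test. Transcript NM_138761 took 24.9%, 23.8% and 26.1% of the BAX TPM in K562 controls and 36.7%, 36.6% and 32.0% in the libraries labelled knockdown. In A549 it took 38.4%, 40.3% and 37.2% against 45.5%, 43.2% and 45.9%. The arms were apart in both lines and overlapped in H1299 and THP-1.

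Around the members, 78 other genes of the same machinery were counted in 7 lists. In A549, 19 were higher and 29 lower of 76 tested, with a median log2 change of -0.04. In H1299 the counts were 30 and 29 of 71 (0.13), in K562 22 and 24 of 75 (-0.03) and in THP-1 5 and 5 of 73 (0.02). These shares lie beside the percentages of all genes given above.

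In A549, where 27.2% of all genes were higher and 28.4% lower, the death receptor list had the most members higher, 6 of 11 tested, with 2 lower. TNFRSF10D, a decoy receptor for TRAIL, rose from 32.3 ± 1.39 to 89.5 ± 2.73 CPM (SD, n = 3; 1.47 ± 0.045, adjusted p = 5.94e-11), FAS, the receptor for FAS ligand, by 0.72 ± 0.06 (adjusted p = 7.25e-07) and TNFSF10, which encodes TRAIL, by 0.72 ± 0.25 (adjusted p = 0.0382). BIRC5, which encodes survivin and is made mainly in dividing cells, fell from 140.9 ± 2.19 to 30.1 ± 1.29 CPM (-2.23 ± 0.04, adjusted p = 8.67e-13). The cell cycle factor E2F1 fell by 1.635 ± 0.08 (adjusted p = 1.9e-08) and BCL2L15 by 1.28 ± 0.15 (adjusted p = 1.59e-05). Of the apoptosome and caspase genes, 1 was higher and 6 lower of 15.

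In H1299, where 33.4% of all genes were higher and 35.5% lower, 6 of 8 genes of member turnover were higher and 1 lower, with a median log2 change of 0.73. Fold changes in this line ran with transcript length, as given for BAK1, and the part of length in these lists was not tested. HUWE1, a ubiquitin ligase known to act on MCL1, rose from 482.1 ± 8.63 to 1106 ± 44.2 CPM (1.20 ± 0.03, adjusted p = 5.9e-11). The caspase inhibitors BIRC6 (1.77 ± 0.04, adjusted p = 3.27e-11) and XIAP (1.18 ± 0.04, adjusted p = 3.76e-10) rose too, although 4 of 6 tested inhibitors of apoptosis fell. HTRA2, which antagonises XIAP once released from mitochondria, fell by 1.20 ± 0.06 (adjusted p = 1.07e-08), the mitochondrial nuclease gene ENDOG by 1.14 ± 0.06 (adjusted p = 5.89e-09) and BCL2L12 by 0.98 ± 0.05 (adjusted p = 8.17e-09).

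In K562, where 28.9% of all genes were higher and 27.5% lower, 7 of 16 transcription factors were higher and 4 lower, with stress factors leading those that rose. ATF4, the main factor of the integrated stress response, rose from 267.5 ± 9.59 to 730.0 ± 16.2 CPM (1.45 ± 0.04, adjusted p = 2.39e-09) and ATF3 from 5.96 ± 0.58 to 31.53 ± 3.802 CPM (2.40 ± 0.11, adjusted p = 7.51e-08). DDIT3, which encodes CHOP, rose from 26.03 ± 0.566 to 66.52 ± 25.38 CPM (1.35 ± 0.35, adjusted p = 0.0321), with a wide spread among the libraries labelled knockdown. TNFSF10 fell by 1.15 ± 0.11 (adjusted p = 1.1e-05), BAD, another BH3-only gene, by 0.81 ± 0.09 (adjusted p = 2.64e-05), and BNIP3L, a mitophagy receptor, by 0.62 ± 0.045 (adjusted p = 1.79e-06).

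In THP-1 FOXO1, a factor known to act on BCL2L11, rose from 5.32 ± 0.42 to 8.97 ± 0.94 CPM (0.75 ± 0.13, adjusted p = 0.0103). The BH3-only gene BMF rose by 0.62 ± 0.12 (adjusted p = 0.0165). NAIP, an inflammasome sensor, fell from 82.7 ± 2.13 to 32.8 ± 3.74 CPM (-1.335 ± 0.10, adjusted p = 0.000377), BNIP3L by 0.62 ± 0.13 (adjusted p = 0.0255) and TP73, which encodes a relative of p53, by 0.58 ± 0.13 (adjusted p = 0.0311).

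Markers of other cell types moved with the arms in some lines. The summed level of 6 fibroblast genes was 80.6 to 353 CPM in the A549 libraries labelled knockdown and 20.4 to 20.7 CPM in the A549 controls. The controls had 10.6 to 16.9 CPM and the other arm 30.1 to 69.3 CPM in K562, and 2.62 to 3.22 against 6.79 to 8.56 CPM in H1299. In A549, K562 and H1299 respectively there were 2, 2 and 1 of the 6 genes above 1 CPM in every library of the line. Summed epithelial genes were 11900 to 12000 against 7360 to 7740 CPM in A549, 1520 to 1570 against 779 to 801 CPM in H1299 and 729 to 797 against 514 to 540 CPM in K562. In THP-1 they were higher in the arm labelled knockdown, at 1.55 to 2.04 against 4.93 to 5.33 CPM. In K562 summed erythroid genes were 2220 to 2380 against 4250 to 4490 CPM, and summed megakaryocyte genes 3.31 to 4.61 against 11.3 to 14.7 CPM. Of the 4 megakaryocyte genes, 1 was above 1 CPM in every K562 library. Summed myeloid genes in K562 fell, at 121 to 124 against 82.2 to 89.1 CPM, as did lymphoid genes, at 26.2 to 28.2 against 13.9 to 16.9 CPM. The myeloid sum rose in A549, at 6.72 to 7.07 against 10.3 to 12.2 CPM. The part of these markers in the values of the members was not tested.

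Over the 24 libraries, with the mean of each line taken out, the gene whose log2 CPM was most like that of a member was found among 10747 genes (10748 for BIK), as a description. For BAX it was MCRIP2 (Pearson r = 0.964), for BCL2L11 ZC3H12C (0.961), for PMAIP1 PPP1CC (0.955), for BAK1 CTSA (0.927) and for BID BOLA2-SMG1P6 (0.926). For BCL2L1 it was CNPY4 (0.895), for BCL2 KLHL3 (0.854), for BBC3 TPST1 (0.829), for BIK BLOC1S4 (0.731) and for MCL1 AK3 (0.715). Libraries of a group share line and label, which any such correlation takes in.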

How the data were processed

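RNA-seq values of 24 libraries, 3 per label in each of 4 lines, were used, grouped by the genotype label. The authors deposited estimated counts per gene, with FPKM per gene and TPM and estimated counts per transcript. Per the submitters' processing notes, which give no versions, HISAT2, StringTie and hg19 were used, and the labels' protocols name a stranded total RNA kit with paired reads. No source used here says whether counting was stranded.

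Estimated counts were rounded and tested on all genes with edgeR 4.0.16 in R 4.3.3 (TMM, filterByExpr, robust quasi-likelihood F test, Benjamini-Hochberg adjusted p under 0.05): within each line on its 6 libraries, on all 24 libraries (average over lines, and interaction with 3 degrees of freedom) and on the 12 control libraries (pairs of lines). Standard errors come from the fold change and its F value. Gene TPM is the sum over deposited transcripts, and lengths come from GENCODE release 29 (matched for 98.7% of genes). The tests were tried on simulated counts.

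Alternatives were DESeq2 1.42.0, 2 other filters (none, and 1 CPM in 3 libraries), a replicate block, an adjusted p under 0.01, counts divided by 4, an offset for gene length (spline of 4 degrees of freedom), limma 3.58.1 on log2(FPKM + 1), log2(FPKM + 0.1) and unfiltered log2(FPKM + 1), all 24 libraries in one fit, and leaving out each library. The members and the lists of other genes were chosen with earlier results of these data known. Named were all members, CBX7, per line up to 3 called genes per direction from the lists reaching 5 CPM in the arm where they are higher, and the gene most like each member. A gene that this rule names is not reported here. The number of fragments behind the estimated counts is not known, so no counting interval is given.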

Additional observations from a re-analysis of the deposited data

Results flagged for a closer look

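For 9 of the 10 members the change between the libraries labelled knockdown and those labelled control differed between the 4 lines in the interaction test of edgeR's quasi-likelihood model of all 24 libraries (Benjamini-Hochberg adjusted p under 0.05), as it did for 64.9% of all genes. The pore gene BAX had the smallest value (adjusted p = 4.71e-09), with a log2 fold change of 0.56 in A549, -0.37 in K562 and -1.10 in H1299, and all 3 labelled knockdown libraries on one side of the controls in each of these lines. PMAIP1 followed (adjusted p = 8.24e-07), at -0.70 in A549 and 0.96 in THP-1, then BCL2L11 (adjusted p = 1.94e-06), at -0.14 in K562 and 0.72 in H1299. BAK1 (adjusted p = 3.97e-05) ran from -0.54 in K562 to values that did not pass the test in A549 and THP-1. BID (adjusted p = 0.000309) was at -0.655 in H1299 and 0.29 in K562, and BCL2L1 (adjusted p = 0.00332) at -0.515 in H1299 and 0.12 in A549.

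The values of BBC3 (adjusted p = 0.00259), at -0.655 in H1299 and 0.96 in K562, take in the K562 libraries labelled knockdown, which did not lie together. For BCL2 (adjusted p = 0.00633) the difference between lines had an adjusted p of 0.175 with an offset for gene length. For BIK (adjusted p = 0.0321), a gene of few counts in A549 and K562, it had an adjusted p of 0.0505 with a replicate block, 0.0534 with counts divided by 4, 0.0509 with an offset for gene length and 0.0532 to 0.264 by limma. Without K562 control replicate 2 or 3 or K562 knockdown replicate 1 or 3 it was 0.0584 to 0.109.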

How the results depend on the processing

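In log2 fold changes between the arms within a line, 591 recomputed member values kept their direction and their side of the threshold, 25 changed sign, and of the rest 27 lost a call and 12 gained one. Between control lines these counts were 1229, 26, 52 and 13, and in the average over lines 313, 9, 16 and 2. In the interaction 328 kept their side and 12 lost the call. With an adjusted p under 0.01, 0 members were called in THP-1 (2 at 0.05, by edgeR's quasi-likelihood test) and 4 between the K562 and A549 controls (7 at 0.05). With all 24 libraries in one fit, 3 members were called in A549 (5 within the line), since BCL2L1 and BID then missed the threshold (adjusted p = 0.223 and 0.162). Leaving out each library in turn gave 7 to 8 members in H1299, 5 to 6 in A549, 5 to 8 in K562, 0 to 2 in THP-1, 6 to 8 in the average, 8 to 9 in the interaction and 5 to 9 over the pairs of control lines.

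With an offset for gene length, the sign changed for BCL2 in H1299 (-0.07, from 0.592), BIK in H1299 (0.26, from -0.293), and the average of BCL2 (-0.032) and of MCL1 (-0.133). Between controls it changed for BCL2 (0.021), MCL1 (0.003) and BID (0.031) in H1299 against A549, for BCL2L1 (0.308), BCL2L11 (0.853) and BID (0.418) in K562 against A549, for BCL2L11 in THP-1 against A549 (0.25) and for BID in K562 against H1299 (0.388). BID in H1299 against A549, -0.008 as reported, was also 0.018 without a filter and 0.087, 0.092 and 0.087 by limma on log2(FPKM + 1), on log2(FPKM + 0.1) and unfiltered. BID in K562 against A549 was 0.072, 0.077 and 0.072 by the same 3 limma fits, and MCL1 in K562, -0.033 as reported, was 0.316, 0.331 and 0.316. The cause of these changes was not tested.

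Leaving out single libraries changed the sign of 13 log2 differences. MCL1 ranged from -1.523 to 0.154 in H1299, -0.124 to 0.548 in A549, -0.475 to 0.301 in K562, -0.4 to 0.381 in THP-1 and -0.294 to 0.125 in the average. Between controls MCL1 ranged from -0.196 to 0.649 in K562 against A549, -0.677 to 0.201 in H1299 against A549 and -0.002 to 0.804 in THP-1 against K562. BIK ranged from -0.163 to 1.541 in A549 and -0.164 to 0.006 in THP-1, BBC3 from -0.258 to 0.033 and BAX from -0.156 to 0.05 in THP-1, and BID from -0.023 to 0.029 in H1299 against A549.

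No pairing by replicate number was seen over the tested genes: deviations of same-numbered libraries correlated at -0.056 to 0.034, and 0 of the 12 pairs exceeded 0.1. Such low correlations do not show that the replicates were unpaired. With a replicate block as a term, MCL1 in K562 was 0.231, BBC3 in A549 was called (0.538, adjusted p = 0.00463), and the calls of BCL2 in H1299 (adjusted p = 0.0753), BCL2L11 in K562 (0.0591) and BIK in the average (0.0518) and the interaction (0.0505) were lost. The block gave 9772 genes called in H1299, 8318 in A549, 7255 in K562 and 1199 in THP-1, where 10075, 8324, 7834 and 1458 were called without it.

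The count over all genes in THP-1, 1458, was 521 at an adjusted p under 0.01, 2298 by DESeq2, 2641 with the length offset, 3758 with all 24 libraries in one fit and 560 to 3324 when 1 library was left out, the highest without knockdown replicate 2 and the lowest without control replicate 2 (the other 4 libraries each gave fewer than 1458). Of 952 counts over the lists of other genes, 765 stayed within 1.5 times the reported count and 187 did not. The number of fragments behind the estimated counts limits the precision and is unknown, and 3 libraries a group leave little to judge the spread by, as the MCL1 ranges show.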
